A study of Mus musculus with 53 samples.

Results

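Ikaros Plastic tumours are T-cell lymphoblastic tumours of mice labelled with the Plastic allele of Ikaros, and they contributed 3 of the 53 arrays of the series. They were chosen by the genotype label alone and were compared with the 35 arrays of the 11 other backgrounds whose label names neither TLX1 nor p53. The other 15 arrays (TLX1 transgenic, TLX1 transgenic crossed with RUNX heterozygous, and p53 knock out) did not enter this comparison. The reference tumours came from Cdkn2a knock out mice with retroviral insertional mutagenesis (9 arrays), from beta-catenin, LMO1, olig1-LMO1, Nup98HoxD13, Tal1-LMO2 and ThPOK transgenic mice (3 arrays each), and from E2A knock out, rag E2A knock out, Pokemon transgenic and Tal1 transgenic mice (2 arrays each). All of these mice carry the strain label C57BL/6 and were untreated, and all of these tumours carry the status label TLX1 negative. The labels give neither the age of the mice, nor whether 1 or both Ikzf1 alleles carry the change, nor the promoter of any transgene. For the olig1-LMO1 double transgenic arrays the genotype label names olig1 but the titles name olig2, and the genotype label is used here. By their titles, the 9 Cdkn2a knock out arrays carry different insertion labels (Myc, Ras, Myb, or Pim1 with Ccnd3, some mixed). They count here as 1 background. Their replicate numbers were given here, and replicate 8 is the array titled with Pim1 and Ccnd3. Total RNA was hybridised as biotin-labelled cRNA to 1 oligonucleotide array per sample. Normal thymus was not analysed here. Every level below is a log2 intensity, and every difference is the mean of the 3 Ikaros Plastic arrays minus the mean of the 11 background means, each background counting equally.

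Ikaros, encoded by Ikzf1, is a zinc-finger transcription factor that binds DNA as a dimer and recruits chromatin-remodelling and histone-deacetylase complexes. In developing thymocytes it restrains Notch target genes and sets the signalling threshold for proliferation, and loss of its function leads to T-cell leukaemia in mice. Plastic is a chemically induced point mutation that alters a DNA-binding zinc finger, so the mutant gene is still transcribed and its RNA level does not check the labels.

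The 3 arrays were not alike. Over the 8517 genes tested, arrays 1 and 3 correlated at r = 0.956, but array 2 correlated with them at 0.807 and 0.812, below its value of 0.836 with Cdkn2a knock out replicate 8. At least 2 log2 away from the mean of the other backgrounds lay 54 genes on array 1, 184 on array 2 and 35 on array 3, against 11 to 94 (median 31) on the reference arrays, where the highest was again Cdkn2a knock out replicate 8. The summed intensity of 7 measured markers of T lymphoblasts, the labelled cells (Cd3d, Cd3e, Cd3g, Cd247, Thy1, Cd2, Cd5) was 42179 on array 1, 22750 on array 2 and 44823 on array 3, within or just above the reference range of 16815 to 44313. The summed intensity of 23 genes of exocrine gland secretion was 8843, 124702 and 9324, against 6433 to 77615 in the reference, whose highest array was Cdkn2a knock out replicate 8. That of 7 epithelial genes was 2844, 22264 and 7095, against 2132 to 8123. Array 2 therefore held fewer T-cell and more gland and epithelial transcripts than arrays 1 and 3, and the results below are given with it and without it. The part of this material in any single difference was not tested, and in bulk tumour RNA fewer cells of a type cannot be told apart from less RNA per cell. The median intensity was 517 to 566 on these arrays and 441 to 590 in the reference. It differed by background: beta-catenin, ThPOK and Cdkn2a knock out arrays lay at 496 to 590, and all other reference arrays lower, at 441 to 484. Beta-actin probes at the 3' end exceeded those at the 5' end by 0.16 to 0.19 log2, against 0.04 to 1.08.

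**Figure D1:**
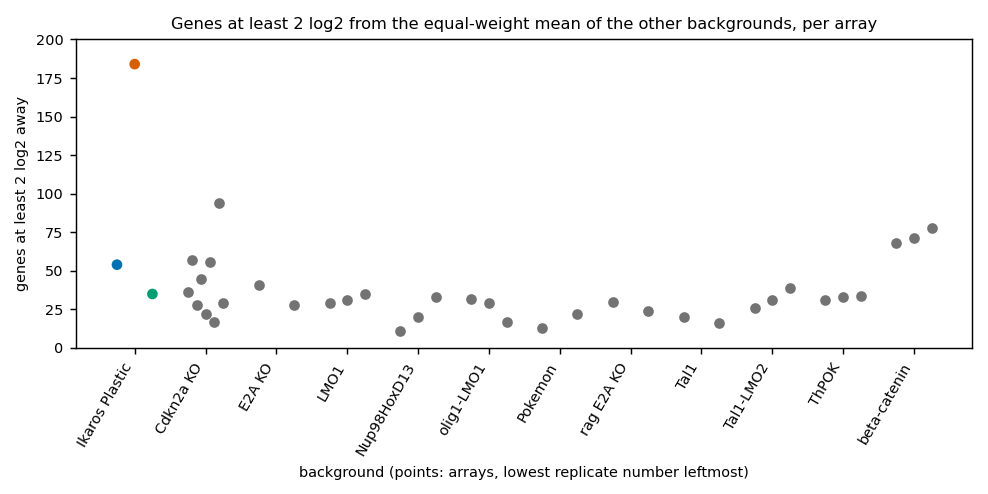
Number of genes at least 2 log2 from the equal-weight mean of the other backgrounds, for each of the 38 arrays, by background (points are arrays; the Ikaros Plastic arrays 1, 2 and 3 are blue, orange and green). Ikaros Plastic array 2 stands highest at 184 genes, and arrays 1 and 3 lie at 54 and 35, inside the reference range of 11 to 94.

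More genes were called higher than lower in Ikaros Plastic tumours, and the calls depended on array 2, on the scaling and on how backgrounds were allowed to vary. At an adjusted p under 0.05 in limma, 2151 of 8517 genes were higher (25.3%) and 1340 lower (15.7%), or 41% in either direction; of these, 216 (2.54%) and 62 (0.728%) differed by at least 1 log2. Without array 2, 1125 genes (13.2%) were higher and 373 (4.38%) lower, among them 1047 and 323 of the genes called on 3 arrays. After the arrays were centred on their medians the split turned to 1361 higher and 2500 lower, and with quantile normalization it was 1654 and 1661; centring moved the median difference of all genes from 0.04 to -0.12. These tests take the spread within backgrounds. When background was a random block, so that Ikaros Plastic stood as 1 background among 12, limma called 6 genes higher (0.0704%) and 0 lower, with 680 and 341 at an unadjusted p under 0.05. The 6 were Fos, Lgals7, Dock1, Trip6, Ctnnd1 and Hsd3b7. Under a model with a single mean for the 35 reference arrays, 312 genes were higher and 302 lower.

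The level of Ikzf1 was higher in these tumours than in the reference mean but overlapped the reference arrays. Its single probe set read 11.38, 10.74 and 11.53 on arrays 1 to 3, a mean of 11.22 ± 0.42 (SD, n = 3), while the reference arrays ran from 9.30 to 11.49 with a median of 10.69. Only array 3 lay above every reference array, and 16 of the 35 reference arrays lay above array 2. The difference of 0.77 ± 0.20 (SE) passed the test (limma, adjusted p = 0.00297; 1.01 without array 2, adjusted p = 0.00348), but not with background as a random block (0.75, limma adjusted p = 0.465). In order of mean level, beta-catenin tumours stood first at 11.39 ± 0.10 (n = 3), then Ikaros Plastic, then Cdkn2a knock out (10.92 ± 0.28, n = 9), Pokemon (10.82 ± 0.42, n = 2), rag E2A knock out (10.74 ± 0.07, n = 2), Nup98HoxD13 (10.65 ± 0.27, n = 3), olig1-LMO1 (10.62 ± 0.29, n = 3), Tal1-LMO2 (10.47 ± 0.33, n = 3), ThPOK (10.13 ± 0.22, n = 3), LMO1 (10.08 ± 0.67, n = 3), E2A knock out (9.71 ± 0.54, n = 2) and Tal1 tumours (9.33 ± 0.04, n = 2). In pairwise limma contrasts, Ikzf1 was higher than in 5 of these backgrounds, and its difference from the beta-catenin tumours was -0.18 (limma adjusted p = 0.739).

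Of the other family members, which encode proteins that can pair with Ikaros, Ikzf4 (Eos) read 9.57, 9.89 and 9.62 against 8.60 to 10.35 and rose by 0.41 (limma adjusted p = 0.000867), with 14 reference arrays above its lowest value. Its other probe set gave 0.18. Ikzf2 (Helios) did not pass the filter on low values and read 8.28, 8.38 and 8.97 against 7.47 to 8.67. Ikzf3 and Ikzf5 were not analysed here. Among 13 genes of the complexes that Ikaros recruits, 1 was higher and 5 were lower, against 25.3% and 15.7% of all genes; the counts were 2 and 0 without array 2 and 0 and 8 with centring. The higher gene was Chd4, the remodelling ATPase of the NuRD complex (0.29 ± 0.10; -0.07 and 0.07 by its other probe sets), and the lower genes included the deacetylase Hdac1 (-0.44 ± 0.12) and the corepressor Sin3a (-0.28 ± 0.08).

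**Figure D2:**
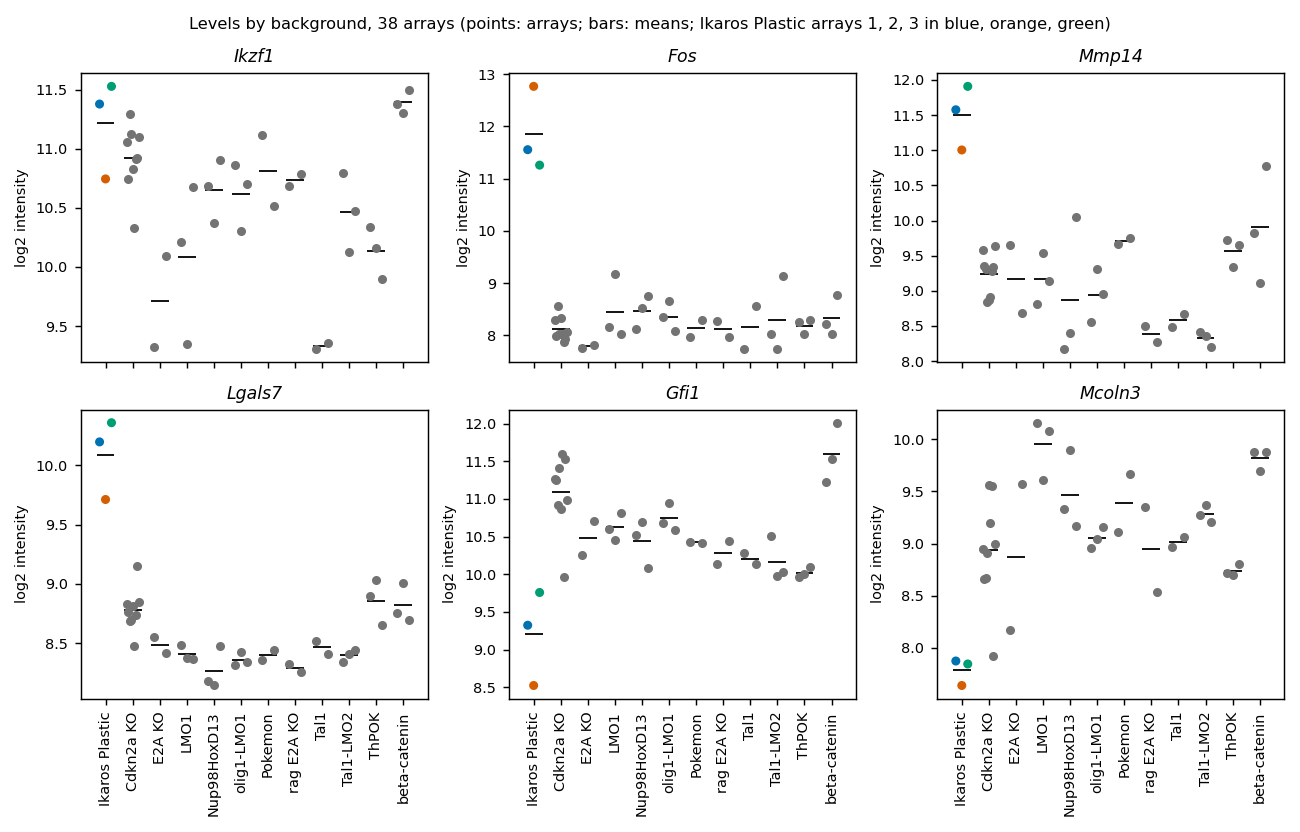
log2 intensity of 6 genes on 38 arrays by background (points are arrays, short lines are background means; Ikaros Plastic arrays 1, 2 and 3 are blue, orange and green). Ikzf1 overlaps the reference, whereas all 3 Ikaros Plastic arrays lie above the 35 reference arrays for Fos, Mmp14 and Lgals7 and below them for Gfi1 and Mcoln3.

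Fos, an immediate-early gene, belongs to the genes that cells transcribe within minutes of receptor or stress signals, and of the 14 genes named as high on all 3 arrays it had the lowest limma adjusted p. Fos, a subunit of the AP-1 transcription factor, read 11.56, 12.77 and 11.26, and the 35 reference arrays read 7.74 to 9.18 (median 8.13). All 3 arrays thus lay above every reference array with a gap of more than 2 log2. The means were 11.86 ± 0.80 (SD, n = 3) and 8.22 ± 0.19 (SD of 11 background means), a 12.5-fold difference (3.64 ± 0.25 log2, SE; limma adjusted p = 1.25e-11; 3.19 without array 2). The difference passed the test against each of the 11 backgrounds, the nearest being Nup98HoxD13 (3.39, limma adjusted p = 5.32e-08), and with background as a random block (adjusted p = 1.55e-06). Its highest level on the 15 TLX1 and p53 arrays was 9.74.

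Several other early genes were also higher, by less. Dusp1, a phosphatase of MAP kinases, read 10.95, 11.44 and 10.83 against 8.65 to 10.51 and rose by 1.51 ± 0.26 (limma adjusted p = 7.79e-05). Ier2 read 10.84, 11.23 and 10.99 against 8.84 to 10.74. Jun and Junb, the partners of Fos in AP-1, read 10.14, 10.81 and 10.20 (reference 8.80 to 10.02) and 10.86, 11.24 and 11.01 (reference 9.24 to 10.78), respectively. Ier3, a gene of survival signalling, read 8.99, 10.21 and 9.49 against 7.75 to 8.95. For each of these 5 genes the 3 arrays lay above all 35 reference arrays, with the highest reference level in ThPOK replicate 3 (Dusp1, Ier2), beta-catenin replicate 3 (Jun, Junb) or Cdkn2a knock out replicate 8 (Ier3). Zfp36, which destabilises cytokine messages, read 10.69, 11.41 and 10.96 against 8.50 to 10.75 and rose by 1.78 ± 0.19. Egr1, another early transcription factor, overlapped the reference (11.21, 11.75 and 12.25 against 8.27 to 12.12) and its difference from Nup98HoxD13 tumours was 0.03. Dusp1, Ier2, Jun, Ier3 and Zfp36 were singled out after their values were seen.

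Of the 7 genes induced by the T-cell receptor that passed the filter, 6 were higher in the limma test and 0 were lower, against 25.3% and 15.7% of all genes, and 5 were higher without array 2. Besides Fos, Egr1 and Junb these were Nr4a1 (0.77 ± 0.14), Nr4a3 (0.47 ± 0.17) and Egr3 (0.33 ± 0.08). Nr4a1 encodes a nuclear receptor that reports receptor strength in thymocytes, and its levels of 11.30, 11.72 and 11.54 overlapped the reference range of 9.99 to 11.41, with 6 reference arrays above the lowest of them. The call lost without array 2 was that of Nr4a3 (limma adjusted p = 0.137). Dusp2 did not pass the test (-0.05). The summed intensity of the 8 measured members was 14340, 20675 and 18010, above each of the 35 reference arrays (5494 to 13748). This sum includes Fos, and a sum of the other members was not taken.

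The promoters of 4 of these genes, from the RefSeq table of build GRCm38.p6, are shown as the 250 bases before the start site, 5' to 3' on the gene's strand, because Fos was the most strongly raised early gene and the others encode its AP-1 partners and a phosphatase of the pathway upstream; they are 4 of the 6 early genes, with Ier2 and Ier3, whose 3 arrays all lay above the reference, and were picked after their values were seen. Capitals mark matches to TGGGAA, the core bound by Ikaros zinc fingers, or to TGACGT, the core of the cyclic AMP response element, on either strand.
Fos, chr12:85473640-85473889, strand +: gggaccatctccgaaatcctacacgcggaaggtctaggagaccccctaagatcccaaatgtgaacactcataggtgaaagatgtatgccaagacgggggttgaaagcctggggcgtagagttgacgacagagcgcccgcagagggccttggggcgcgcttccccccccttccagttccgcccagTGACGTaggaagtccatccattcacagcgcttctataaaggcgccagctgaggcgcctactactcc
Jun, chr4:95052223-95052472, strand -: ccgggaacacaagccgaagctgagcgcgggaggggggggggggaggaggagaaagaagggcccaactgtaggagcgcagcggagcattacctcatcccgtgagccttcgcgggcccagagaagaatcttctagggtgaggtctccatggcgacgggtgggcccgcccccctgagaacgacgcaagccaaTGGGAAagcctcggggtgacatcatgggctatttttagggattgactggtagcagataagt
Junb, chr8:84978749-84978998, strand -: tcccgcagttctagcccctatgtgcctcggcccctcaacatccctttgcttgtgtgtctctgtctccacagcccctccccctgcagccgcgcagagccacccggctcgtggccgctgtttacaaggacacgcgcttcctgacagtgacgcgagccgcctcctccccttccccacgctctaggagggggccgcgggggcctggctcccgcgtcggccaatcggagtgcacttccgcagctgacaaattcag
Dusp1, chr17:26508473-26508722, strand -: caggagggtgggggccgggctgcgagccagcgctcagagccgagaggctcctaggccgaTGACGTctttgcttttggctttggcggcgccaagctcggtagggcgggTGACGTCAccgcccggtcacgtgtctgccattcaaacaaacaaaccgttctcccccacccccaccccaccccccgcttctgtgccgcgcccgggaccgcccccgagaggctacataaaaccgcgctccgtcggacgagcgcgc
The Jun window held 1 TGGGAA match, the Fos window 1 TGACGT match and the Dusp1 window 3, of which the last 2 overlap on opposite strands in the palindrome. Over the full windows of 300 bases (250 before to 50 after the start), TGGGAA was present in 28.3% of 27025 promoters. It was present in 10 of the 29 matched promoters of genes whose 3 arrays all lay above the reference range, in 2 of 24 of genes below it, in 2 of 11 of the named high genes and in 0 of 10 of the named low genes. TGACGT was present in 8.37% of all promoters and in 13.6% of those of the genes tested, beside 6 of 29 and 5 of 24 in the sets above and below the range. The serum response element (CArG box) was present in 1.81% of all promoters and in 2 of 29 and 1 of 24. A match describes these letters only.

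In all 3 arrays, 48 genes (0.564%) lay at least 1 log2 above the reference mean and 26 (0.305%) at least 1 log2 below it; 47 (0.552%) and 21 (0.247%) of them also passed the limma test. In arrays 1 and 3, whatever the value of array 2, 102 genes were this much higher and 40 this much lower. By the smallest of the 3 distances from the reference mean, Ift27 (1.004, lower), Fbxo17 (1.01, lower) and Anxa5 (1.03, higher) stood just inside the limit, and Junb (0.989, higher), Itgb1 (0.991, higher) and Sephs2 (0.9996, lower) just outside it. The 14 highest and 14 lowest named genes follow. All 28 kept their direction and their call when arrays were centred or quantile normalized; 13 of the 14 high and 6 of the 14 low genes were still called without array 2, and Fos alone was called with background as a random block (Mmp14 followed at limma adjusted p = 0.0638). Among the 5 largest differences, 4 belonged to genes of secreted proteins and 1 to Fos. Mucl2, which encodes a mucin-like secreted protein, read 10.96, 14.49 and 12.61, while the median reference array read 7.16 and Cdkn2a knock out replicate 8 reached 14.30. Its difference was 5.39 ± 0.88 (limma adjusted p = 4.03e-05; 4.49 without array 2, adjusted p = 0.0039). The secretoglobins Scgb2b27 (9.21, 14.42 and 11.42) and Scgb1b27 (9.75, 14.57 and 11.49), small secreted proteins of glands, had medians of 7.23 and 8.39 in the reference and 13.85 and 14.27 on the same Cdkn2a array. Crisp3, a cysteine-rich secretory protein of salivary glands, read 8.29, 13.64 and 9.83 against 6.54 to 10.41. For these 4 genes array 2 was the highest and array 1 the lowest of the 3, and for each the only reference arrays above array 1 were 1 or 2 in number. All 4 passed the test against each of the 11 backgrounds. Their reference medians lay below the lowest array median of 8.79, so the Ikaros Plastic arrays helped them pass the filter. Crisp3 passed it only with these arrays, as Cdkn2a knock out replicate 8 was the only reference array above its median. The calls against such low levels therefore give no support of their own. Like the summed gland genes above, they were highest on array 2. On arrays 1 and 3 that gland sum had 13 and 11 reference arrays above it. The part of gland material in these 4 genes was not tested. The secretoglobins are a family of similar genes whose probes may share transcripts.

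Among the 14 high genes, Pdgfrb, Mmp14 and Apod are genes of stroma and matrix, and Pdgfrb and Mmp14 were lowest on array 2. Pdgfrb, the receptor for platelet-derived growth factor on pericytes and fibroblasts, read 11.96, 10.57 and 11.67 against 6.83 to 10.67, with 1 reference array (LMO1 replicate 1) above array 2. Mmp14, a membrane-bound matrix metalloproteinase, read 11.58, 11.004 and 11.91 against 8.17 to 10.77, so that all 3 arrays lay above the reference. Its difference of 2.42 ± 0.27 (limma adjusted p = 5.51e-07; 2.67 without array 2) held against each background, the nearest being beta-catenin (1.60, limma adjusted p = 0.00568). Its other probe set gave 1.69. Apod, a lipocalin of connective tissue and glands, read 11.24, 11.53 and 9.92 against 7.89 to 10.63, with 3 reference arrays above array 3.

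The remaining high genes include immune and cytoskeletal genes shared with other backgrounds. Mpzl2, an adhesion protein of thymic epithelium and T-cell progenitors, read 12.19, 10.95 and 12.01, against a reference median of 7.38 and a highest array of 11.74 (Pokemon replicate 2). It was higher than in 7 backgrounds, with a difference of 0.94 from Pokemon tumours (limma adjusted p = 0.472). Mndal, an interferon-inducible PYHIN gene with close paralogs, read 12.67, 11.82 and 12.29 and was likewise higher than in 7 backgrounds, with 0.03 between it and Pokemon tumours. Ppic, a cyclophilin, read 10.86, 10.21 and 10.82 and differed from beta-catenin tumours by 0.20. Tacc2, a centrosomal coiled-coil protein, read 10.51, 11.46 and 10.62 against 7.58 to 10.67. H2-Eb1, a class II antigen-presenting chain, read 11.23, 11.70 and 11.84 against 7.93 to 13.16. Jchain, the joining chain of secreted immunoglobulin, read 10.29, 12.66 and 9.96 with 12 reference arrays above the lowest of these, and its call was lost without array 2 (1.36, limma adjusted p = 0.151).

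**Figure D3:**
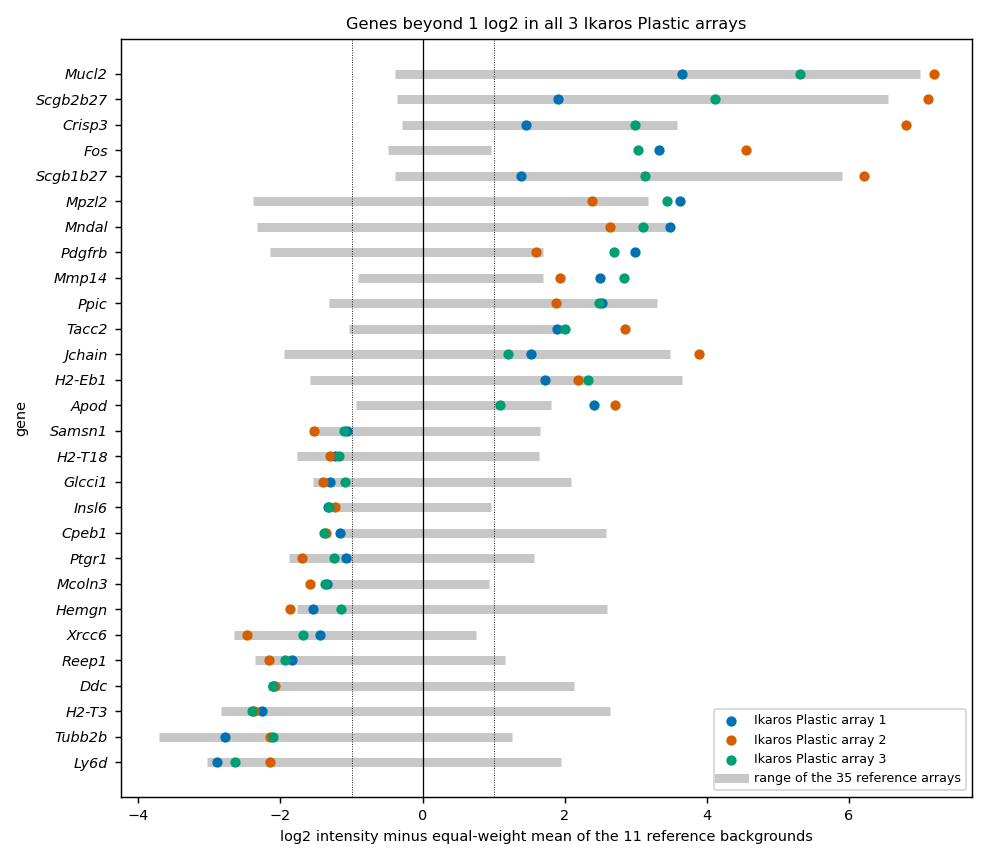
Difference in log2 intensity from the equal-weight mean of the 11 reference backgrounds for the 28 named genes; each point is 1 Ikaros Plastic array (blue, orange and green for arrays 1, 2 and 3), grey bars span the 35 reference arrays, and dotted lines mark 1 log2. Only Fos and Mmp14 among the high genes, and Mcoln3 and Insl6 among the low genes, have all 3 points outside the grey bar.

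A stricter pattern, all 3 arrays outside the whole range of the 35 reference arrays, was met by 31 genes above it (0.364%) and 27 below it (0.317%). With the TLX1 and p53 groups in the reference these counts were 8 and 9, and without the Cdkn2a knock out arrays 61 and 58. Of the 31 and 27, 12 and 3 also lay beyond 1 log2 on all 3 arrays. Beside the early genes, the set above the range held genes of cell adhesion and the actin cytoskeleton, which are named here after their values were seen. Lgals7, a galectin of stratified epithelium, read 10.20, 9.71 and 10.36 against 8.14 to 9.15 and rose by 1.59 ± 0.10 (limma adjusted p = 6.17e-12; 4.64e-12 without array 2). On each of the 35 reference arrays Lgals7 lay below the array median, so it passed the filter only through the Ikaros Plastic arrays. Its p-values therefore give no support of their own, since the same arrays brought it into the test. Dock1, an activator of the GTPase Rac, read 9.87, 10.19 and 9.81 against 7.91 to 9.46. Trip6, a LIM-domain protein of focal adhesions, read 9.75, 8.92 and 9.89 against 7.79 to 8.88, and Ctnnd1, the p120 catenin of adherens junctions, read 9.51, 10.59 and 9.77 against 7.90 to 9.24. Hsd3b7, an enzyme of bile acid synthesis, read 9.58, 9.13 and 10.16 against 7.82 to 9.10. These 5 genes, with Fos, were the calls made with background as a random block, at limma adjusted p from 1.60e-05 (Lgals7) to 0.0377 (Hsd3b7), and each was also higher than in each of the 11 backgrounds.

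Yap1, the transcriptional effector of the Hippo pathway, read 10.54, 10.13 and 10.66 against 8.31 to 10.08, and Itgb1, the beta-1 integrin, read 11.20, 11.28 and 11.26 against 8.82 to 10.78, with its other probe sets between -0.04 and 0.98. Tmem176b (12.10, 12.63 and 12.26 against 9.43 to 11.88) and Tmem176a (10.98, 11.97 and 11.10 against 8.72 to 10.86), neighbouring genes of membrane proteins expressed in myeloid and some lymphoid cells, rose by 1.87 ± 0.25 and 1.78 ± 0.27. Scd1, a desaturase of fatty acids, read 12.85, 11.19 and 11.12 against 8.95 to 11.11, and Hk2, a hexokinase of glycolysis, read 10.60, 10.57 and 10.86 against 8.77 to 10.03. Bcl2l2, an antiapoptotic member of the BCL2 family, read 9.25, 9.97 and 9.45 against 7.94 to 9.15 and rose by 1.13 ± 0.15 (limma adjusted p = 2.93e-06), with its other probe sets between -0.27 and 1.06.

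Of the 14 low genes, Ly6d, H2-T3, H2-T18 and Ddc had reference levels that differed widely between backgrounds. Ly6d, a surface antigen of early lymphoid progenitors, read 8.45, 9.19 and 8.70 against a reference of 8.31 to 13.29 and fell by 2.56 on the log2 scale (SE 0.71, limma adjusted p = 0.00536; 0.0279 without array 2). It was lower than in 7 backgrounds, and its difference from ThPOK tumours was -0.23 (limma adjusted p = 0.901). H2-T3, the thymus leukaemia antigen, read 7.93, 7.83 and 7.80 against 7.37 to 12.84, and its near-identical neighbour H2-T18 read 9.84, 9.77 and 9.90 against 9.31 to 12.72. Probes of this pair may share transcripts, they differed from beta-catenin tumours by -0.03 (H2-T3) and -0.02 (H2-T18), and without array 2 their differences stayed at -2.33 and -1.21 but did not pass the test (limma adjusted p = 0.0763 and 0.0845). Ddc, the decarboxylase of dopamine and serotonin synthesis, read 7.20, 7.22 and 7.20, close to Pokemon tumours (difference -0.04, limma adjusted p = 0.981), against a reference median of 9.78, and without array 2 its difference was -2.10, against -2.09 with it, and did not pass the test (limma adjusted p = 0.0592).

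Tubb2b, Reep1 and Xrcc6 were lower than nearly all reference arrays. Tubb2b, a beta-tubulin isotype, read 8.32, 8.95 and 8.99 against a reference median of 11.39, with 1 reference array (Cdkn2a knock out replicate 8, 7.40) below the highest of these. Reep1, which shapes the endoplasmic reticulum, read 8.19, 7.87 and 8.10 against a median of 10.20, though its other probe set gave -0.37. Xrcc6, the Ku70 subunit that binds broken DNA ends, read 11.15, 10.13 and 10.91 against a median of 12.69. It fell by 1.86 (SE 0.38, limma adjusted p = 0.000349; 0.017 without array 2), was lower than in 10 backgrounds and was matched below only by Cdkn2a knock out replicate 8 (9.94). Mcoln3, a cation channel of endosomes, read 7.87, 7.64 and 7.85 against 7.92 to 10.16 and was lower than in all 11 backgrounds (-1.44 ± 0.23, limma adjusted p = 3.18e-05), but its other probe set gave -0.04. Insl6, an insulin-like peptide, read 7.64, 7.74 and 7.65 against 7.75 to 9.94. Hemgn, Ptgr1, Cpeb1, Glcci1 and Samsn1 had differences between -1.52 and -1.23, and without array 2 the differences lay between -1.34 and -1.08 and none passed the test.

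Gfi1, a zinc-finger repressor that T-cell lymphomas often activate by insertion, lay below the whole reference. Its levels were 9.32, 8.52 and 9.76 against 9.97 to 12.01, and it fell by 1.35 (SE 0.22, limma adjusted p = 4.03e-05; -1.01 and 0.00547 without array 2). It was lower than in 10 backgrounds, the exception being ThPOK (-0.82, limma adjusted p = 0.0534). Exosc8, a subunit of the RNA exosome named after its values were seen, read 8.22, 7.65 and 8.42 against 8.46 to 10.20.

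Lists of T-cell genes are given as counts of called members, to be read against the 25.3% higher and 15.7% lower among all genes tested (13.2% and 4.38% without array 2). Of 13 measured Notch receptors and targets, 3 were higher and 0 lower, also without array 2, a share of higher genes near that of all genes on 3 arrays. These were Hes1, a repressor directly induced by Notch (10.60, 10.53 and 10.87 against 8.09 to 10.79; 0.99 ± 0.22), Igf1r, the receptor for insulin-like growth factor (0.95 ± 0.19; 0.07 by its other probe set), and Hey1 (0.36 ± 0.08). Hes1 was higher than in 5 backgrounds, and its difference from the nearest, E2A knock out, was 0.17 (limma adjusted p = 0.731). Notch1 (12.70, 11.54 and 12.91 against 8.13 to 13.44), Notch3 (11.37, 10.27 and 11.78) and Dtx1, a Notch-induced ubiquitin ligase (12.93, 11.56 and 12.99), did not pass the test, and for all 3 genes array 2 was the lowest. Of 12 genes of the double-positive thymocyte stage, all 12 had a difference below 0, with medians of -0.46, -1.14 and 0.02 on the 3 arrays, and 3 passed the test as lower and 0 as higher: Cd8b1 (-1.33 ± 0.50), Cd8a (-1.32 ± 0.51) and Cd4 (-1.16 ± 0.30), the chains of the coreceptors. Cd4 read 9.29, 10.34 and 9.22 against 9.15 to 12.54, and was the single call of this list without array 2 (-1.52, limma adjusted p = 0.00402), although its other probe set gave -0.05. Cd8a read 9.84, 8.86 and 11.91 against 8.07 to 12.89, so that array 3 stood apart from the others. The recombinase genes Rag1 (-0.56) and Rag2 (-0.03) and the pre-T-cell receptor chain Ptcra (-0.83) did not pass the test.

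Of 16 T-lineage identity genes, Cd3e was higher (13.25, 12.58 and 13.08 against 11.53 to 12.77; 0.59 ± 0.14) and 0 were lower. The median of this list was 0.34 on array 1, -0.76 on array 2 and 0.51 on array 3, and over the 3 arrays it turned from 0.04 to -0.12 with centring. Among 8 genes of mature T cells, 3 were higher: Klf2, a factor of quiescence and egress (11.94, 11.24 and 12.48 against 8.98 to 11.77; 1.60 ± 0.37), its target S1pr1, the egress receptor (0.63 ± 0.11), and Foxo1 (0.49 ± 0.14). Foxo1 was not called without array 2. Of 13 oncogenes and suppressors, 3 were higher and Gfi1 was lower. The higher genes were the cyclin Ccnd1 (10.86, 10.59 and 11.40 against 7.90 to 11.58; 1.28 ± 0.34), the kinase Pim1 (0.77 ± 0.23; -0.16 by its other probe set) and Lmo2 (0.68 ± 0.19), of which only Ccnd1 was called without array 2. Of the 8 genes of the BCL2-family list that passed the filter, which does not hold Bcl2l2, Pmaip1, the BH3-only protein Noxa, was higher (10.07, 8.44 and 9.70 against 7.55 to 9.10; 1.36 ± 0.21). Lower were the BH3-only genes Bcl2l11 (Bim, -1.02 ± 0.28) and Bid (-0.79 ± 0.27; 0.18 by its other probe set) and the effector Bak1 (-0.44 ± 0.15; 0.23 by its other probe set), and none of these 3 was called without array 2. Of 9 cytotoxic and innate lymphoid genes 5 were higher (2 without array 2), of 6 E-protein and Id genes 2 (0 without array 2), and of 4 early progenitor genes 1, Lmo2 (0 without array 2). Of 7 homing and egress genes, S1pr1 was higher and Cxcr4, the receptor for the chemokine of marrow stroma, was lower (-0.80). Cxcr4 differed by -0.17, -1.77 and -0.47 on arrays 1 to 3 and was not called without array 2 (-0.32, limma adjusted p = 0.304), whereas S1pr1 was.

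Calls among cell-cycle genes depended on array 2. Of 25 DNA replication genes, 0 were higher and 14 lower on 3 arrays, where 15.7% of all genes were lower. Without array 2, 0 were lower, where 4.38% of all genes were, and with centring 22 were, where 2500 of 8517 genes were. Their median difference was 0.04 on array 1, -0.98 on array 2 and -0.28 on array 3. The largest was that of Cdc6, which loads the replicative helicase (10.30, 8.89 and 10.01 against 9.38 to 11.54; -1.05 ± 0.23). Of 22 mitotic genes, 15 were lower, 2 without array 2 and 20 with centring, and those 2 were the spindle kinases Aurka (10.22, 9.38 and 10.22 against 9.65 to 11.59) and Ttk (8.98, 8.43 and 8.96 against 8.73 to 10.20). Of 19 Myc target and ribosome biogenesis genes, 0 were higher and 1 was lower, Odc1, the first enzyme of polyamine synthesis (-0.82), and without array 2 the counts were 2 and 0. The summed intensity of the mitotic genes was 45637, 25254 and 46131, against a reference of 30221 to 76812. The median of all genes tested was 0.06, -0.01 and 0.06 on the 3 arrays.

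Markers of cells other than lymphoblasts are likewise given beside the 25.3% of all genes that were higher (13.2% without array 2). Of 19 myeloid genes, 10 were higher and 0 lower (9 higher without array 2), led by the complement genes of macrophages C1qb (12.48, 11.77 and 11.95 against 8.06 to 12.34; 1.51 ± 0.26), C1qc (1.32 ± 0.26) and C1qa (1.13 ± 0.22). Their summed intensity of 37388 to 51644 lay within the reference range of 10681 to 71535. Of 5 class II genes, 4 were higher, and H2-Eb1 alone without array 2. Of 14 genes of stroma, fat and endothelium, 9 were higher (5 without array 2), among them Pdgfrb, the proteoglycan Dcn (1.59 ± 0.32) and the collagen Col3a1 (1.38 ± 0.43). Their summed intensity of 38885 on array 1 exceeded the highest reference array (32271), and those of arrays 2 and 3 were 31515 and 20185. Of 7 epithelial genes, 5 were higher (3 without array 2). Krt8, a keratin of simple epithelium, read 8.24, 12.09 and 10.54 against 7.82 to 10.10, so that arrays 2 and 3 lay above the reference and array 1 within it. Of 11 gland genes that passed the filter, 9 were higher and 2 lower, and without array 2 the counts were 1 and 0. Of 4 plasma-cell genes, 3 were higher (2 without array 2), among them Irf4, which activated T cells also express (10.72, 9.69 and 10.57; 1.54 ± 0.42). Of 9 B-cell genes, 3 were higher and 1 lower (1 and 0 without array 2), and their summed intensity of 4862 to 5316 lay within the reference range of 3863 to 10684. Of 11 interferon-stimulated genes, 6 were higher and 0 without array 2. The part of such cells in the genes named above was not tested. The lists of erythroid (1 of 6 higher), platelet (1 of 1) and skeletal muscle genes (1 higher and 1 lower of 5) completed the markers of other cells. Without array 2 the platelet gene was still called, and 0 of the erythroid and muscle genes were.

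**Figure D4:**
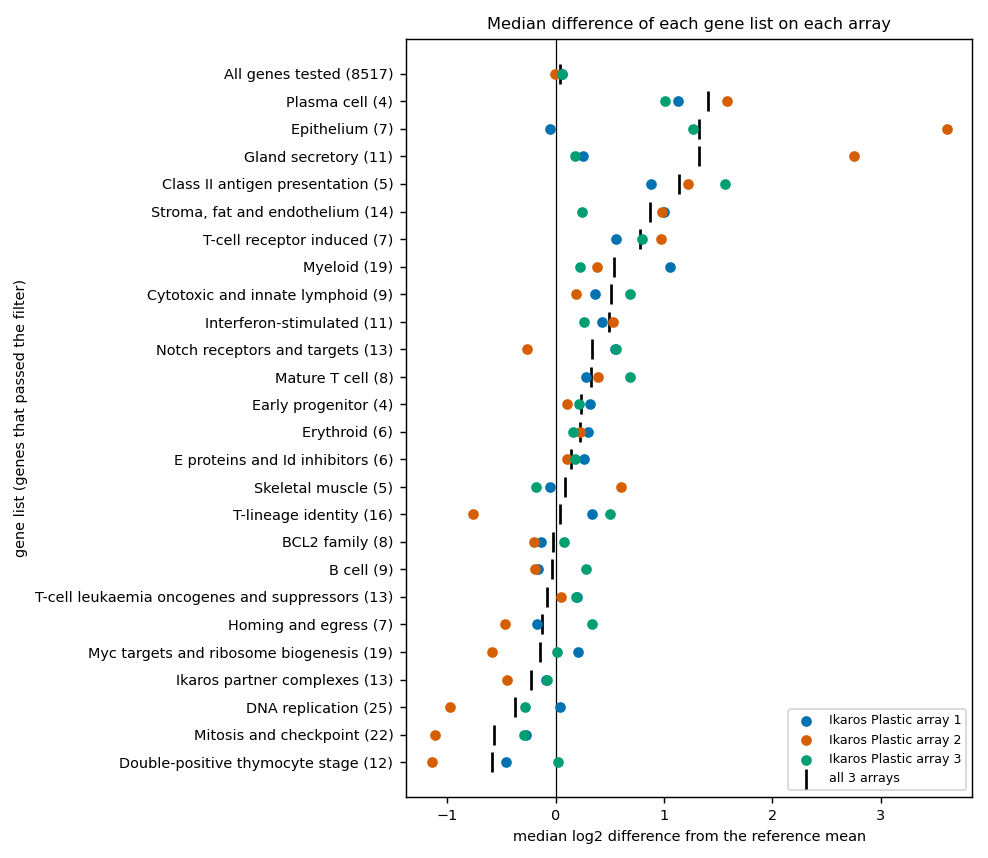
Median log2 difference from the reference mean over the genes of each list that passed the filter (number in brackets), for Ikaros Plastic arrays 1, 2 and 3 (blue, orange and green) and for the 3 together (black stroke); lists with fewer than 3 such genes are left out. The epithelial and gland lists and the replication, mitosis and T-lineage lists separate array 2 from arrays 1 and 3.

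Single arrays carried their own sets of genes. A gene was assigned to 1 array when that array lay at least 2 log2 from the reference mean and outside the reference range while the other two lay within 1 log2 of the mean; a single array has no replicate, so these are levels without a test. Array 1 alone was high for 10 genes (0.117%) and low for 0. The 6 highest were Hp, the haemoglobin scavenger haptoglobin (13.33 on array 1; 9.27 and 9.16 on the others; reference 7.98 to 12.07), the fat-cell hormone Adipoq (12.08; 7.28 and 8.03; 6.92 to 10.55), Cyp2e1, an ethanol-metabolising cytochrome (11.24; 8.43 and 8.55), the acute-phase genes Lrg1 (11.31; 9.61 and 9.47) and Itih4 (10.75; 8.48 and 8.44), and Myh6, a cardiac myosin (10.94; 8.78 and 8.56; 0.05 by its other probe set). Several of these vary in the reference too, where Adipoq averaged 9.96 in olig1-LMO1 and 7.05 in E2A knock out tumours.

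Array 2 alone was high for 100 genes (1.17%) and low for 5 (0.0587%). The 6 highest follow. Klk1b27, a kallikrein of the mouse submandibular gland, read 13.46 on array 2 and 7.28 and 7.74 on the others, against 6.97 to 10.08. Mup5, a major urinary protein with many near-identical paralogs, read 14.06 (8.23 and 8.41; reference 7.61 to 13.99). Cyp2f2 read 13.38 (7.88 and 7.95), Dcpp3, a demilune cell protein of salivary glands, 14.38 (9.22 and 9.37), the chloride cotransporter Slc12a2 12.92 (8.87 and 8.56) and the kallikrein Klk1 13.72 (9.85 and 9.93). Except for Klk1b27, whose highest reference array was olig1-LMO1 replicate 2, the highest reference level of each of these was on Cdkn2a knock out replicate 8. Among the genes low on array 2 alone were Fubp1, a regulator of Myc transcription (9.71; 12.07 and 12.16), Fermt3, the kindlin of blood cells (9.97; 11.73 and 11.77), Emid1 (8.08; 9.88 and 9.997) and Sh2d1a, the lymphocyte adaptor SAP. Over the 3 arrays Fubp1 differed by -0.85, against -0.43 to -0.17 by its other probe sets. Fermt3 differed by -1.02, against -0.36 to -0.21 by its other probe sets.

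Array 3 alone was high for 2 genes (0.0235%) and low for 1 (0.0117%). Cytip, a regulator of lymphocyte adhesion, read 12.51 (11.34 and 11.28 on the others; reference 7.69 to 12.32), and St6gal1, a sialyltransferase, read 11.69 (10.37 and 9.85; 7.80 to 11.12; 0.04 by its other probe set). Cytip met the rule narrowly, as arrays 1 and 2 lay 0.97 and 0.91 log2 above the reference mean. It was also called over the 3 arrays (1.34, limma adjusted p = 0.017). Gnas, the stimulatory G-protein subunit, was low at 10.22 against 11.76 to 13.06 in the reference and 12.47 and 13.18 on arrays 1 and 2, while its other probe sets differed by -0.18 to 0.12. With a limit of 1 log2 and no condition on range, array 2 alone was high for 548 and low for 486 genes, array 1 alone for 77 and 15, and array 3 alone for 65 and 18.

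**Figure D5:**
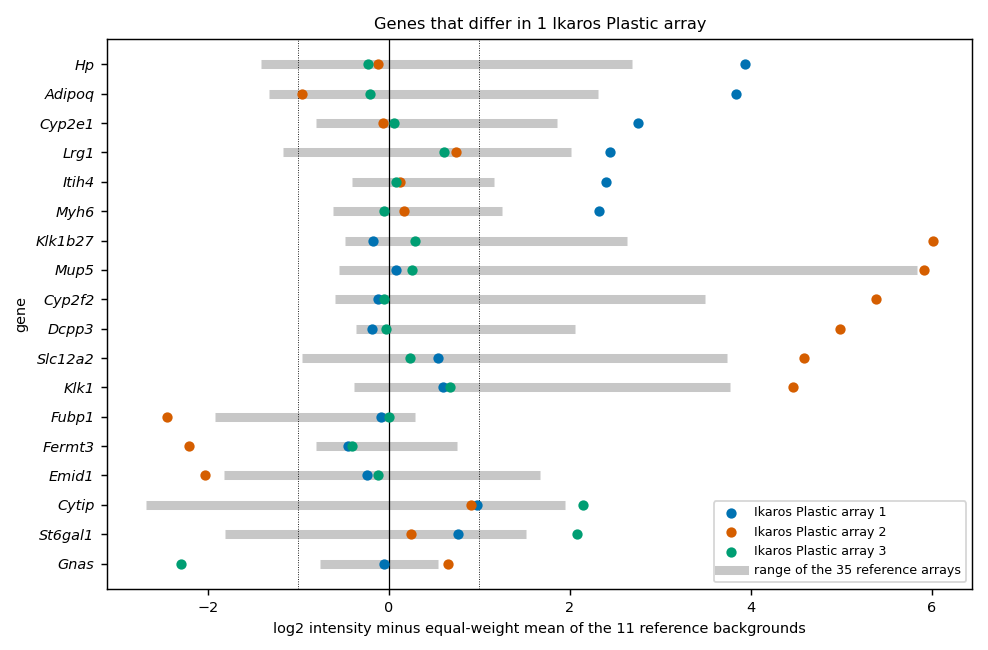
Difference in log2 intensity from the reference mean for named genes that differ in 1 Ikaros Plastic array; points are arrays 1, 2 and 3 (blue, orange and green) and grey bars span the 35 reference arrays. Array 1 stands apart for 6 genes from Hp to Myh6, array 2 for 9 from Klk1b27 to Emid1, and array 3 for Cytip, St6gal1 and Gnas.

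Against single backgrounds, the number of genes that differed in either direction was lowest for beta-catenin tumours, at 860 (10.1%), followed by ThPOK (1511, 17.7%) and Cdkn2a knock out tumours (1566, 18.4%). Next came Pokemon (28.1%), E2A knock out (28.7%), Tal1 (30.3%), rag E2A knock out (35.1%), Nup98HoxD13 (36%), Tal1-LMO2 (39.2%) and LMO1 tumours (40.2%), and the highest number was that of olig1-LMO1 tumours (3461, 40.6%). These contrasts share the 3 Ikaros Plastic arrays and differ in their number of reference arrays. The 3 lowest counts were those of the backgrounds whose median intensities lay near the Ikaros Plastic arrays, and the part of scaling was not tested. Correlations gave another order: arrays 1 and 3 reached 0.851 to 0.874 with beta-catenin arrays and 0.896 to 0.912 with Pokemon arrays. For array 2 these were 0.746 to 0.771 and 0.712 to 0.730. The counts are therefore no measure of likeness. In all 11 contrasts, 35 genes were called higher (0.411%) and 11 lower (0.129%). Among the 28 named genes, 6 high genes (Mucl2, Scgb2b27, Crisp3, Fos, Scgb1b27 and Mmp14) and 1 low gene (Mcoln3) met this. The limits of the filter given above for Fos and for the genes of secreted proteins apply here too.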

How the data were processed

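The 53 arrays were measured on 1 platform, and the authors deposited 1 intensity per probe set and array on what the range of the values shows to be a linear scale; the normalization and its software are not given in the sources used here. Each intensity was taken to log2 without further scaling. Of 22690 probe sets, 20393 carried 1 gene symbol in the platform annotation, 691 several and 1606 none; 64 were controls, and 20364 matched a RefSeq gene by Entrez identifier. Each gene was represented by its probe set of highest mean over the 38 arrays compared, and 8517 of 12394 genes lay above the array median on at least 3 of them. As Ikaros Plastic has 3 arrays, a gene could pass this filter through them alone. Lgals7 did so, and Fos and Crisp3 would not have passed it without these arrays.

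Arrays were grouped by genotype label. limma 3.58.1 in R 4.3.3 fitted 1 mean per group over 38 arrays and 12 groups (26 residual degrees of freedom), tested Ikaros Plastic against the equal-weight mean of 11 backgrounds and each background, two-sided, and adjusted p-values by Benjamini-Hochberg over the 8517 genes at a threshold of 0.05. The random-block fit used a consensus correlation of 0.489 within backgrounds. Counts were made with Python 3.11.15, pandas 2.3.3 and NumPy 2.4.6, and plots with Matplotlib 3.10.9. On simulated data for this comparison, with 200 of 8517 genes changed, 60% were recovered at 0.5 log2, 86% at 1, 98% at 1.5 and 100% at 2, and 10 of 182 calls were false. For unchanged genes the simulation set the Ikaros Plastic mean equal to the reference mean. It drew independent noise, without an outlying array such as array 2. Its share of false calls therefore does not carry over to the calls on the measured data. Whether arrays of 1 background stand for separate animals is not stated; a p-value here therefore reflects how far these samples scatter, and that scatter may be technical. The highest correlation between 2 arrays was 0.988, so no 2 arrays held identical values and none was left out as a repeat. A correlation cannot tell whether 2 arrays stem from 1 tumour. The number of arrays limits the precision.

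Named were, of genes called and beyond 1 log2 on all 3 arrays, the 14 highest and 14 lowest differences; for each single array up to 6 highest and 4 lowest genes; up to 4 called members of each of 27 gene lists; and the Ikaros family. Not named were transcripts without a gene name, receptor or immunoglobulin segments and a few sex-linked genes. Others named are marked as such or illustrate a list. The comparison, its members and its lists were chosen with earlier results of these data known. Alternatives changed the scaling, filter, probe set, reference, block and arrays left out. At least 1 gene that the rule names is not reported here.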

Additional observations from a re-analysis of the deposited data

Results flagged for a closer look

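Among the 9 Cdkn2a knock out arrays, 1 array lay far from the others for 8 of the genes named for all 3 Ikaros Plastic arrays; chance alone sets such a mark on about 1 in 20 groups. Replicate 8 was high for Scgb2b27 (13.85, next 8.94), Crisp3 (10.41, next 6.89), Scgb1b27 (14.27, next 9.64) and Tacc2 (10.67, next 9.08), and low for Tubb2b (7.40, next 11.05), Reep1 (7.68, next 9.55) and Xrcc6 (9.94, next 12.27). For each of these genes it lay on the side on which the Ikaros Plastic arrays lay. Replicate 7 was high for Ly6d (13.29, next 10.55), on the opposite side.

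In the 15 TLX1 and p53 arrays, which were outside the main reference, 8 of the high genes reached levels above every reference array. Pdgfrb did so on 8 arrays (up to 11.90, against 10.67 in the reference), Fos on 3 (up to 9.74, against 9.18), Mmp14 on 2 (up to 12.22, against 10.77) and Jchain on 2 (up to 12.96, against 12.24). On 1 array each this held for Mpzl2 (11.81), Mndal (12.76), Ppic (11.75) and Tacc2 (11.11). For Fos all 3 Ikaros Plastic arrays stayed above these levels, whereas for Mmp14 the highest of the 15 arrays exceeded them.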

How the results depend on the processing

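The counts of genes called depended on several choices, and the cause was not tested except where the choice itself removes arrays or genes. With background as a random block, 6 genes were higher (all by 1 log2) and 0 lower; without array 2 as well, 9 (all by 1 log2) and 0. The latter fit, the fit without array 2 and Cdkn2a knock out replicate 8, and the alternatives for the 11 contrasts with single backgrounds were chosen after seeing the data; leaving out both arrays gave 1422 higher and 511 lower genes, 40 of the lower by 1 log2. Centring gave 1361 higher and 2500 lower (142 and 118 by 1 log2), a single mean for the reference arrays 312 and 302 (123 and 25), no filter 3382 higher, and a stricter filter 115 higher by 1 log2. Leaving out 1 Ikaros Plastic array gave 1125 to 2067 higher and 373 to 1369 lower genes (133 to 312 and 33 to 90 by 1 log2), the lowest values each time without array 2. Leaving out 1 reference array gave 2079 to 2310 and 1277 to 1476 (208 to 226 and 58 to 64 by 1 log2). Ikzf1 kept its direction at 0.75 (random block), 0.99 (random block without array 2) and 0.66 (single reference mean) but lost its call.

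Of genes beyond 1 log2 in all 3 arrays, 24 were higher with the stricter filter and 30 with centring, and 14 higher and 6 lower at 1.5 log2. The genes of array 1 alone numbered 3 higher with the stricter filter, 5 with TLX1 and p53 groups in the reference, 2 at 3 log2, and 1 lower with centring. For array 2 alone, the higher genes numbered 195 with no filter, 52 with the stricter filter and 19 at 3 log2. Its lower genes numbered 2 with the mean of probe sets, 11 with quantile normalization, 15 with centring, 3 with a single reference mean or without rag E2A knock out, and 0 at 3 log2. For array 3 alone, the higher genes numbered 0 with the mean of probe sets, centring, 3 log2 or without olig1-LMO1, and 1 with quantile normalization, a single reference mean, or without Cdkn2a knock out, LMO1, Pokemon, Tal1 or beta-catenin. Its lower genes numbered 0 with the mean of probe sets, the probe set of largest interquartile range or 3 log2. Genes with all 3 arrays outside the reference range numbered 20 higher with the stricter filter, 21 higher with centring, 8 higher and 9 lower with TLX1 and p53 groups added, 61 and 58 without Cdkn2a knock out, and 48 and 47 without beta-catenin. Genes called against all 11 backgrounds numbered 21 to 84 higher and 3 to 16 lower when 1 Ikaros Plastic array was left out, and 17 lower with quantile normalization.

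When 1 Ikaros Plastic array was left out, directions turned for Cyp2f2 (-0.087 to 2.66), Dcpp3 (-0.11 to 2.47), Adipoq (-0.58 to 1.81), Cyp2e1 (-0.0018 to 1.41), Hp (-0.17 to 1.91) and Gnas (-1.17 to 0.30). They also turned for Cyp2f2 and Dcpp3 with the random block without array 2 (-0.091 and -0.11) and without both arrays (-0.048 and -0.086), and with another probe set for Pim1 (-0.16), Bid (0.18) and Chd4 (-0.066). For the 28 genes named for all 3 arrays, 1689 values under alternatives kept direction and call, 88 lost the call and 0 turned. Replicate numbers did not mark shared deviations (mean correlations 0.02, 0.01 and -0.01); with the replicate block and without Cdkn2a knock out, 2173 genes were higher and 1291 lower, against 2267 and 1434 without the block.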
